A study of Mus musculus with 6 samples.

Results

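Caffeine blocks the receptors for adenosine, and the genes examined here are the 4 mouse adenosine receptors (Adora1, Adora2a, Adora2b and Adora3) and 6 genes that make, move or remove adenosine (Adk, Ada, Nt5e, Entpd1, Slc29a1 and Ahcy). These 10 genes were chosen by name, not by their values, from the 43629 gene rows of each count file, and all 10 were found. RNA was measured in the left ventricles of 6 male CD-1 mice at 1 year of age, 3 per treatment. CD-1 is an outbred stock. The dams of the vehicle group had received normal saline, and those of the caffeine group 20 mg/kg caffeine, by 1 intraperitoneal injection a day from embryonic day 6.5 to 9.5. One field of the labels gives day 10.5 as the end. The offspring themselves received no caffeine as adults, so the comparison asks what an exposure before birth left in the adult heart. Nothing in the sources says which dam each heart came from, so p-values measure only the spread between these hearts.

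Adenosine builds up outside cells when ATP is released and broken down. Entpd1 (CD39) takes ATP and ADP to AMP, and Nt5e (CD73) takes AMP to adenosine. Adora1 and Adora3 encode receptors coupled to Gi, which lowers cyclic AMP, and Adora2a and Adora2b encode receptors coupled to Gs, which raises it. In the heart the Adora1 receptor slows the pacemaker and conduction and dampens the response to β-adrenergic stimulation, and the Adora2a receptor widens coronary vessels. Slc29a1 (ENT1) carries adenosine across the membrane. Inside the cell Adk phosphorylates it to AMP, Ada deaminates it to inosine, and Ahcy releases it from S-adenosylhomocysteine.

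Total counts ran from 9228359 to 10483101 in the vehicle hearts and from 7613011 to 9153997 in the caffeine hearts, so that 3 counts correspond to between 0.286 and 0.394 CPM (counts scaled to a common library size). Cardiomyocyte markers summed to between 62900 and 71500 CPM over the 6 hearts, and the atrial markers Myl4, Myl7 and Sln together to at most 2.05 CPM. Of the ventricular genes added to the check after the counts were seen, the myosin light chain Myl2 lay between 6760 and 8510 CPM and the transcription factor Irx4 reached 40.5 CPM. CPM values are scaled with edgeR's TMM factors. Of the 10 genes, 6 passed the filter on low counts and were tested among 13092 genes. Adora2b, Adora3, Ada and Ahcy did not pass it.

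Levels between genes were compared as RPKM, the CPM divided by the length of the merged exons in kilobases. Adk stood highest at 18.1 ± 1.08 RPKM (SD, n = 3) in the vehicle hearts and 19.1 ± 1.42 RPKM (SD, n = 3) in the caffeine hearts. Slc29a1 followed at 12.4 ± 0.569 RPKM (SD, n = 3) and 12.4 ± 1.36 RPKM (SD, n = 3). Adk and Slc29a1 did not overlap in any heart. Next came Adora2a (mean over the 6 hearts 7.0 RPKM), Entpd1 (6.07 RPKM), Adora1 (4.96 RPKM) and Nt5e (2.90 RPKM). Adora2a and Entpd1 overlapped within each treatment. Adora1 overlapped with Entpd1 in the vehicle hearts, where Adora1 lay between 5.55 and 6.47 RPKM and Entpd1 between 5.34 and 6.92 RPKM. In the caffeine hearts Adora1 lay between 3.49 and 4.50 RPKM, below Entpd1 at 5.25 to 6.57 RPKM. Ada (0.427 RPKM), Adora2b (0.390 RPKM), Ahcy (0.252 RPKM) and Adora3 (0.0470 RPKM) were each far below these, and Ada, Adora2b and Ahcy overlapped with each other. The scale depends on the length used. With the longest annotated transcript in place of the merged exons, Adk stood at 36.3 RPKM in the vehicle hearts and 38.4 RPKM in the caffeine hearts. The order of Nt5e and Adora1 also turned with that length: in the caffeine hearts the mean of Nt5e (6.14 RPKM) was then above that of Adora1 (4.53 RPKM), while in the vehicle hearts it was below it (6.34 and 7.02 RPKM).

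**Figure D1:**
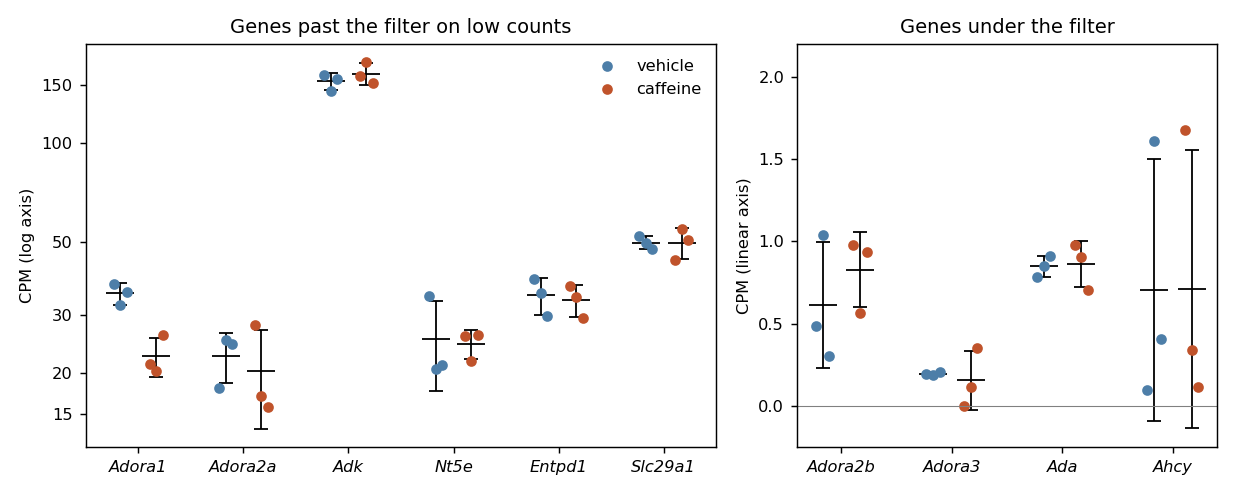
CPM of the 10 genes in each heart, on a log axis for the 6 genes past the filter and on a linear axis for the 4 under it. Points are hearts (3 per treatment), the long bar is the mean and the error bar the SD. For Adora1 the 3 caffeine hearts, between 20.2 and 26.0 CPM, all lie below the 3 vehicle hearts, between 32.1 and 37.4 CPM.

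Of the 6 genes tested, Adora1 differed most between the treatments. Adora1 (ENSMUSG00000042429, GRCm38 chr1:134199223-134235431, minus strand) encodes the Gi-coupled receptor that predominates in heart muscle and the conduction system. It had 383, 339 and 347 counts in vehicle replicates 1 to 3, and 152, 179 and 222 counts in caffeine replicates 1 to 3. Scaled for library size these were 37.4, 32.1 and 35.2 CPM in the vehicle hearts and 21.3, 20.2 and 26.0 CPM in the caffeine hearts. Every caffeine heart was below every vehicle heart, and the gap between the lowest vehicle and the highest caffeine heart was wider than either SD (2.68 and 3.10 CPM). The mean was 1.55-fold lower in the caffeine hearts, a log2 fold change of −0.63 with a standard error of 0.13 and a 95% interval of −0.91 to −0.35. In edgeR's quasi-likelihood test the unadjusted p was 0.000392, rank 41 among the 13092 genes, and the adjusted p was 0.122. In this test it therefore did not pass the study's thresholds, an adjusted p below 0.05 with a fold change above 1.5. The study's methods name edgeR but not the test within it, so this is not the study's own result for Adora1. At the same thresholds the study reported more genes than this test called. The exact two-sided permutation test gave p = 0.1, the smallest possible with 3 hearts against 3. The call depended on the test. Adora1 was past the thresholds in edgeR's exact test (adjusted p = 0.00373), in DESeq2's Wald test (adjusted p = 0.0199) and in the quasi-likelihood test with no filter on low counts (adjusted p = 0.00021). It was not in limma-voom (adjusted p = 0.115). With no filter its standard error was 0.134, no smaller than the 0.125 with the filter. That fit called 240 genes over all, beside 14 with the filter. In the filtered quasi-likelihood test, leaving out each heart in turn kept the log2 fold change of Adora1 between −0.75 and −0.56, with adjusted p between 0.131 and 0.271.

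**Figure D2:**
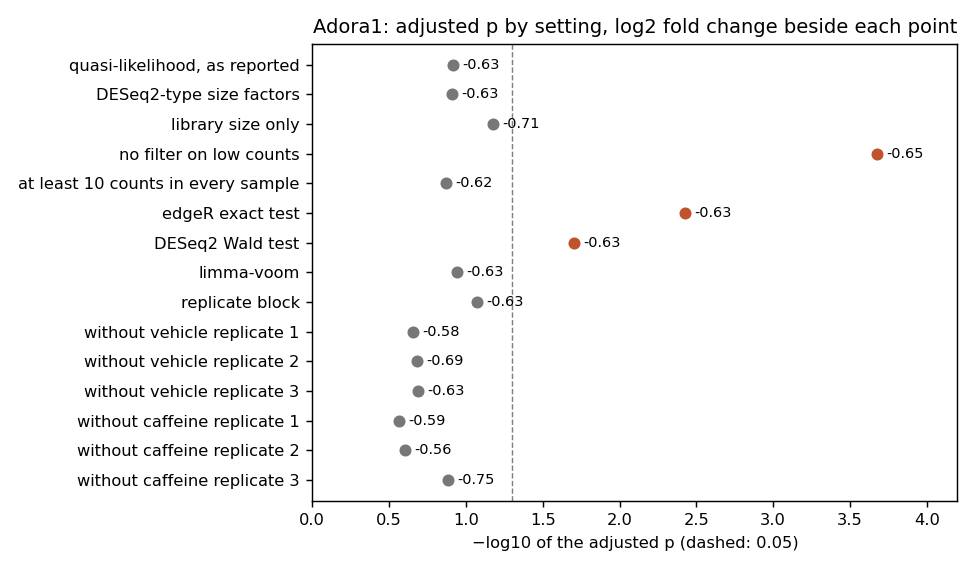
Adora1 under 15 fits. The horizontal axis is −log10 of the adjusted p and the number beside each point is the log2 fold change of caffeine over vehicle. The direction is lower in all 15 fits, and the 3 orange points, to the right of the dashed line at an adjusted p of 0.05, also pass the 1.5-fold threshold.

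Over the 6 tested genes, 0 were called by the quasi-likelihood test and by limma-voom, and 1 (Adora1) by edgeR's exact test and by DESeq2. Across the 13092 genes the quasi-likelihood test called 14 (0.107%), limma-voom also 14, edgeR's exact test 94 and DESeq2 67. At an unadjusted p below 0.05 there was 1 of the 6, against 8.82% of all genes. The treatments did not overlap in 1 of the 6, with caffeine lower, against 7.12% of all genes in that direction and 14.2% in either. The median log2 fold change of the 6 was −0.05, and that of all 13092 genes was 0.00.

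Exons of Adora1 and Mybph, a myosin-binding protein gene on the opposite strand, share 1162 bases, 20.1% of the Adora1 exons. No step of the library protocol is said to keep the strand, and without it reads from that stretch cannot be assigned to one of the pair. Mybph itself had 0 or 1 count in every heart. With the genes tested put in 5 classes by the length of their longest transcript, the median log2 fold change was 0.06 in the shortest and −0.07 in the longest class. In the class that holds Adora1 it was −0.01.

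Conduction tissue is rich in the Adora1 receptor. Whether its marker genes and Adora1 follow each other from heart to heart was not tested. As a group, the caffeine hearts were lower both in Adora1 and in the summed level of these markers. This list of 9 genes was put together after the counts had been seen, and gives values only. Their summed level was 127 to 151 CPM in the vehicle hearts and 84.9 to 97.2 CPM in the caffeine hearts, so the treatments did not overlap. All 7 of its tested genes had a lower mean in the caffeine hearts, and 0 were called. In 4 of them (Cntn2, Hcn4, Cacna1g and Irx3) the treatments did not overlap. The share of all genes in that direction was 7.12%. Because the list was made after the counts were seen, nothing is read from that comparison. Gja5, Kcne1 and Tbx3 overlapped, with log2 fold changes of −0.045, −0.418 and −0.192. Hcn4, the main pacemaker channel, lay at 15.5, 15.9 and 9.83 CPM in the vehicle hearts and 7.42, 6.10 and 5.51 CPM in the caffeine hearts. None of the 9 markers was at 0 in all hearts. Cardiomyocyte markers overlapped in their sum, from 63500 to 71500 CPM in the vehicle hearts and 62900 to 66700 CPM in the caffeine hearts, but 3 of the 7 did not overlap singly, with 2 higher (Actc1 and Mb) and 1 lower (Ttn) in the caffeine hearts. Fibroblast markers summed to 1100 to 1260 CPM in the caffeine hearts, above the 854 to 1020 CPM of the vehicle hearts, with 7 of 7 higher in the mean, 2 of them without overlap (Col3a1 and Dcn), and 0 called. Macrophage markers were also higher in the mean for 7 of 7, with 2 not overlapping (Csf1r and Adgre1), 0 called, and sums that overlapped (105 to 154 CPM and 122 to 238 CPM). Beside these counts, 14.2% of all genes tested did not overlap in either direction. The 6 sparse lymphocyte markers, none of them tested, summed to 0.879 to 1.42 CPM in the vehicle hearts and 1.52 to 2.38 CPM in the caffeine hearts. In bulk tissue, fewer cells of a type and less RNA per cell cannot be told apart. The part of any of these cell types in the Adora1 values was not tested.

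Adora2a (ENSMUSG00000020178, GRCm38 chr10:75316877-75334784), the Gs-coupled receptor of coronary vessels and leukocytes, did not separate the treatments. Its levels were 18.0, 25.2 and 24.5 CPM in the vehicle hearts and 28.0, 17 and 15.8 CPM in the caffeine hearts. Vehicle replicate 1 lay apart from its group on the low side and caffeine replicate 1 on the high side. The log2 fold change was −0.16 (standard error 0.21, adjusted p = 0.886), with a 95% interval of −0.63 to 0.30 that still holds a 1.5-fold lower level. Without caffeine replicate 1 the log2 fold change was −0.46 (adjusted p = 0.559). The treatments then no longer overlapped, which is easier to reach with fewer hearts. Without caffeine replicate 3 the log2 fold change was −0.01. Endothelial markers summed to between 681 and 783 CPM in the vehicle hearts and between 704 and 754 CPM in the caffeine hearts.

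The other receptors were near the limit of detection. Adora2b (ENSMUSG00000018500, GRCm38 chr11:62248984-62266453), the low-affinity Gs-coupled receptor, had 5, 11 and 3 counts in the vehicle hearts and 7, 5 and 8 counts in the caffeine hearts. Pooled, these were 0.619 CPM (95% Poisson interval 0.373 to 0.967) and 0.815 CPM (0.498 to 1.26). Adora3 (ENSMUSG00000000562, GRCm38 chr3:105870858-105908926), the second Gi-coupled receptor, had 2 counts in each vehicle heart and 0, 1 and 3 counts in the caffeine hearts. Pooled, it stood at 0.196 CPM (0.0718 to 0.426) and 0.163 CPM (0.0444 to 0.418). These intervals cover counting error only. In the fit with no filter on low counts, the 95% interval of the log2 fold change was −0.747 to 1.511 for Adora2b. For Adora3 it was −2.464 to 1.921. Differences within these ranges could not be told from no change at this depth. Adora3 also shares 20.9% of its exon bases with Tmigd3, which had at most 2 counts in any heart.

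Adora1 and Adora2a made up nearly all of the receptor mRNA. Adora1 held 51.1%, 38.6% and 42.5% of the summed receptor RPKM in the vehicle hearts and 27.5%, 37.2% and 43.8% in the caffeine hearts. Caffeine replicate 3 lay within the vehicle range, and the shares overlapped (exact two-sided permutation test, p = 0.3). Adora2a held 53.2% ± 5.91 (SD, n = 3) in the vehicle hearts and 59.4% ± 9.08 (SD, n = 3) in the caffeine hearts. The ratio of Gs-coupled to Gi-coupled receptor mRNA was 0.941, 1.57 and 1.33 in the vehicle hearts and 2.63, 1.67 and 1.24 in the caffeine hearts. On the log2 scale it was 0.49 higher in the caffeine hearts (exact two-sided permutation test, p = 0.4). That difference depended on single hearts. It was 0.20 without caffeine replicate 1 and 0.28 without vehicle replicate 1, but 0.74 without caffeine replicate 3 and 0.65 without vehicle replicate 2. The summed receptor level was 12.7, 14.4 and 14.3 RPKM in the vehicle hearts and 13.4, 9.39 and 10.3 RPKM in the caffeine hearts, a log2 difference of −0.34 (exact two-sided permutation test, p = 0.2). The treatments overlapped in the shares, in this ratio and in the summed level, although they did not overlap in Adora1 itself.

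**Figure D3:**
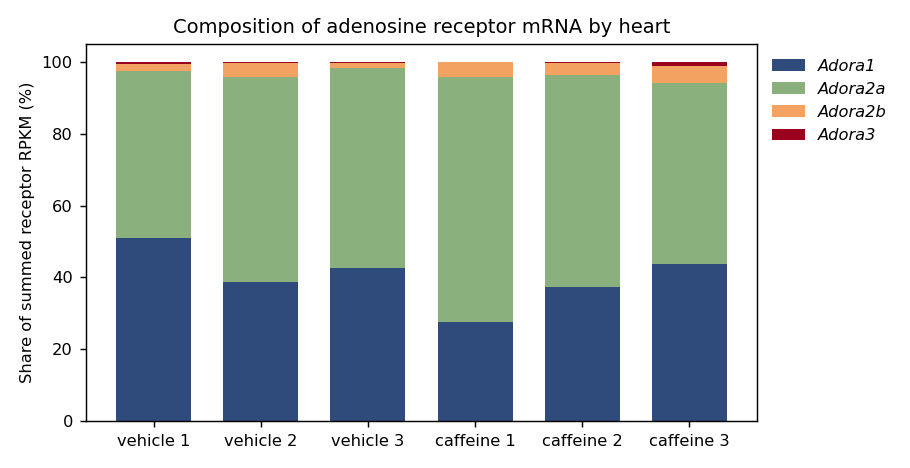
Share of each receptor in the summed adenosine receptor RPKM of each heart, in percent, as stacked bars. Adora1 and Adora2a fill nearly all of each bar, and the Adora1 share ranges from 27.5% in caffeine replicate 1 to 51.1% in vehicle replicate 1.

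The enzymes that form adenosine outside the cell did not separate the treatments. Nt5e (ENSMUSG00000032420, GRCm38 chr9:88327197-88372092) had 34.3, 20.6 and 21.1 CPM in the vehicle hearts and 25.9, 21.7 and 26.0 CPM in the caffeine hearts. Vehicle replicate 1 was the highest heart of all, and its group mean rested on it. The log2 fold change was −0.05 (95% interval −0.47 to 0.37, adjusted p = 0.972). Without vehicle replicate 1 it was 0.23 (adjusted p = 0.664). Here too the treatments no longer overlapped, with fewer hearts to separate. Entpd1 (ENSMUSG00000048120, GRCm38 chr19:40612366-40741602) had 38.6, 34.9 and 29.8 CPM in the vehicle hearts and 36.7, 34.1 and 29.3 CPM in the caffeine hearts. Its log2 fold change was also −0.05 (95% interval −0.33 to 0.23, adjusted p = 0.955), so a change of 1.5-fold either way lay outside the interval. The ratio of Nt5e to Entpd1 RPKM was 0.576, 0.383 and 0.459 in the vehicle hearts and 0.458, 0.412 and 0.576 in the caffeine hearts (exact two-sided permutation test, p = 1.0). With the longest transcript as the length it lay between 0.624 and 0.939 over the 6 hearts.

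The transporter and the enzymes of removal did not separate the treatments either. Slc29a1 (ENSMUSG00000023942, GRCm38 chr17:45585200-45599606) had 52.2, 49.7 and 47.6 CPM in the vehicle hearts and 44.0, 54.7 and 50.8 CPM in the caffeine hearts. The log2 fold change was 0.00 with a 95% interval of −0.23 to 0.23 (adjusted p = 0.998). Its exons share 275 bases with the antisense gene Gm17080, which had at most 3 counts. Adk (ENSMUSG00000039197, GRCm38 chr14:21052574-21448569) had 161, 144 and 157 CPM in the vehicle hearts and 160, 176 and 152 CPM in the caffeine hearts. Its log2 fold change was 0.08 with a 95% interval of −0.12 to 0.28 (adjusted p = 0.866), the narrowest of the 6. For both genes the interval held no 1.5-fold change. Ada (ENSMUSG00000017697, GRCm38 chr2:163726584-163750239) was steady but sparse, with 8, 9 and 9 counts in the vehicle hearts and 7, 8 and 6 counts in the caffeine hearts. Pooled, these were 0.848 CPM (95% Poisson interval 0.554 to 1.24) and 0.856 CPM (0.530 to 1.31). Per length, Adk mRNA exceeded Ada mRNA 48.5, 39.6 and 40.5 times in the vehicle hearts and 38.4, 45.8 and 50.8 times in the caffeine hearts (exact two-sided permutation test, p = 0.8). With the longest transcript as the length the ratio lay between 65.0 and 86.1 over the 6 hearts. Of these 2 routes out of adenosine, the kinase mRNA was by far the more abundant in every heart.

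**Figure D4:**
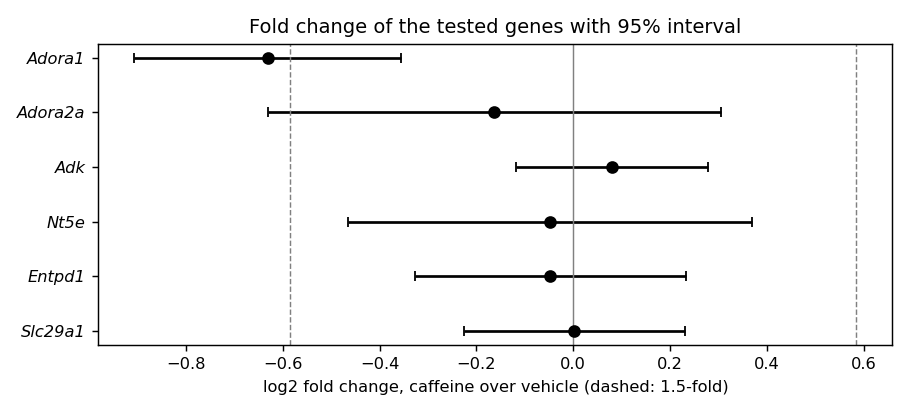
Log2 fold change of caffeine over vehicle for the 6 tested genes, with the 95% interval from edgeR's quasi-likelihood fit; dashed lines mark a 1.5-fold change. The interval of Adora1, −0.91 to −0.35, is the only one of the 6 that leaves out 0, and those of Adk, Entpd1, Nt5e and Slc29a1 lie inside the dashed lines.

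Ahcy (ENSMUSG00000027597, GRCm38 chr2:155059310-155074497), whose enzyme clears S-adenosylhomocysteine and frees adenosine, cannot be read from these counts. It had 1, 17 and 4 counts in the vehicle hearts and 12, 3 and 1 counts in the caffeine hearts, a spread of more than 10 times within each treatment. The mouse genome holds near-identical copies of its mRNA. Gm4737 (GRCm38 chr16:46152985-46155077), a single-exon gene annotated as protein coding, matches the Ahcy transcript over 2086 bases with 7 differing bases. The processed pseudogene Gm9826 (GRCm38 chr1:7177739-7179037) matches its coding part over 1299 bases with 11 differing bases. Of the 2469 windows of 75 bases, the read length, in the longest coding Ahcy transcript, 74.4% occur unchanged in a transcript of another gene. For Adora2a, Adora2b, Adk, Ada, Nt5e and Entpd1 that share was 0%, for Slc29a1 6.0%, for Adora1 19.3% and for Adora3 26.0%, the last 3 through the overlapping genes named above. The sequences below, from the GENCODE transcripts, show what such a read looks like. The first is a stretch that Ahcy, Gm4737 and Gm9826 share without a difference (Ahcy at GRCm38 chr2:155068944-155069018, minus strand). The next pair is the same coding stretch in Ahcy (chr2:155062229-155062303, minus strand) and in Gm4737 (chr16:46153926-46154000, minus strand), with the differing bases in capitals. Counted from 1 at the 5′ end, with the Ahcy base first, they are C38T and C56T.
Ahcy, Gm4737 and Gm9826: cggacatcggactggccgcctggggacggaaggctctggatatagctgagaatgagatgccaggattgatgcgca
Ahcy: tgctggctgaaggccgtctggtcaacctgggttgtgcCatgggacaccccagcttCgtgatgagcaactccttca
Gm4737: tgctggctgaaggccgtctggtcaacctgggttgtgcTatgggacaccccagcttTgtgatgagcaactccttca

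Gm4737 had 56, 50 and 63 counts in the vehicle hearts and 37, 53 and 50 counts in the caffeine hearts, more than Ahcy in every heart. Gm9826 had 0, 5 and 0 counts and 3, 0 and 1 counts in the same order. Vehicle replicate 2 and caffeine replicate 1, the hearts with most Ahcy counts, were also those with most Gm9826 counts, while Gm4737 did not follow them. How the counting treated reads that match more than 1 place is not given in the sources used here, so the Ahcy counts are no measure of its mRNA.

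The wider set of genes around adenosine gave no call either. Of 83 other genes (receptors for ATP, ATP release, other nucleotidases, adenylate kinases, deaminases, salvage, other transporters and the methionine cycle), 81 were matched by symbol to a counted row, and 56 passed the filter. Pnp and Slc28a2b were not matched by symbol and were not analysed, so whether they were counted under another identifier is not known here. The caffeine mean was higher for 30 and lower for 26, the median log2 fold change was 0.01, and the smallest adjusted p was 0.189. In the quasi-likelihood test 0 were past the thresholds, and 0 also in edgeR's exact test, DESeq2 and limma-voom. At an unadjusted p below 0.05 there were 7 of the 56, against 8.82% of all genes. The treatments did not overlap in 6 of the 56, all of them lower in the caffeine hearts. Of all genes, 14.2% did not overlap in either direction and 7.12% in that direction, and nothing particular to these genes is read from the count. Of these 6, 3 also had an unadjusted p below 0.05.

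Those 3 were Entpd5, Nt5c1a and Mtr. Entpd5, a nucleoside diphosphatase of the endoplasmic reticulum, had 222, 209 and 219 CPM in the vehicle hearts and 146, 169 and 177 CPM in the caffeine hearts, which gave −0.40 on the log2 scale (SE 0.09, adjusted p = 0.189). Nt5c1a, the cytosolic nucleotidase that makes adenosine from AMP in striated muscle, had 17.5, 21.1 and 18.5 CPM in the vehicle hearts and 12.7, 13.8 and 13 CPM in the caffeine hearts. Its difference was −0.53 on the log2 scale (SE 0.13, adjusted p = 0.209). Mtr, methionine synthase, had 90.8, 104 and 90.5 CPM in the vehicle hearts and 71.0, 89.4 and 71.4 CPM in the caffeine hearts, which gave −0.30 on the log2 scale (SE 0.11, adjusted p = 0.439). Each lay below the vehicle hearts in all 3 caffeine hearts, and none of the 3 passed the correction over all genes.

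The most abundant gene per length in each role showed no separation other than Entpd5. Among the receptors for ATP and other nucleotides, P2ry2 stood at 14.4 ± 1.53 RPKM (SD, n = 3) in the vehicle hearts and 14.6 ± 0.634 RPKM (SD, n = 3) in the caffeine hearts. Ak1, which interconverts ADP with ATP and AMP, was the most abundant of the whole set at 318 ± 17.4 RPKM (SD, n = 3) and 326 ± 19.0 RPKM (SD, n = 3). Hprt (salvage) had a log2 fold change of 0.10, Mat2a (S-adenosylmethionine synthesis) 0.17, Nt5c3 (a pyrimidine nucleotidase) 0.09, Ampd3 (AMP deaminase) −0.21 and Slc28a2 (a concentrative nucleoside transporter) 0.33, with adjusted p between 0.717 and 0.879. Xdh, the oxidoreductase that forms uric acid in purine breakdown, had 212, 153 and 164 CPM in the vehicle hearts and 157, 104 and 130 CPM in the caffeine hearts. Its log2 fold change was −0.44 (quasi-likelihood test, unadjusted p = 0.0169, adjusted p = 0.411), and the treatments overlapped. Panx1, a channel that releases ATP, had the largest positive log2 fold change of the 56, 0.79, at 2.43 ± 0.960 CPM (SD, n = 3) against 4.17 ± 1.17 CPM (SD, n = 3) with caffeine. Its treatments overlapped too (quasi-likelihood test, unadjusted p = 0.042, adjusted p = 0.554).

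**Figure D5:**
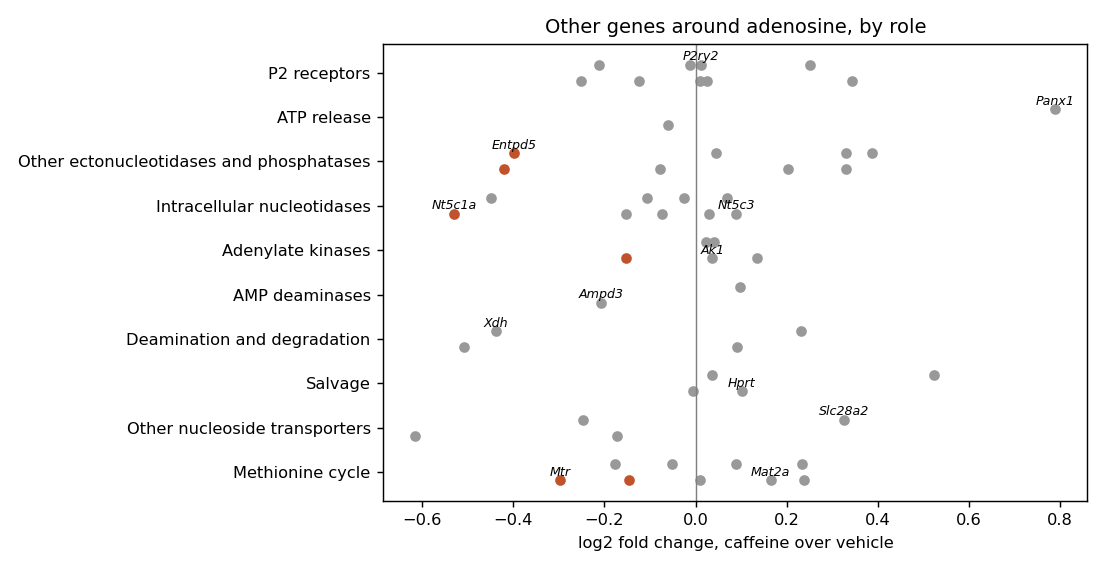
Log2 fold change of caffeine over vehicle for the 56 tested genes around adenosine, 1 point per gene, by role. Orange points are the 6 genes whose treatments do not overlap, all of them on the lower side, and none of the 56 passed the thresholds.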

How the data were processed

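RNA-seq counts of 6 left ventricles were analysed, 3 per treatment, grouped by the sample titles. The deposited values are raw counts per Ensembl gene: per the methods, the authors cleaned poly(A) RNA reads with FastQC, mapped them to mm10 (GRCm38) with Tophat2 and counted them with HTSeq on Ensembl release 79. Libraries were pooled at equal molar ratio for 1 sequencing run, and each has its own file. Tool versions are not given in the sources used here.

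Counts were filtered with filterByExpr (minimum count 10, minimum total 15), scaled by TMM (factors 0.94 to 1.07) and fitted with edgeR's quasi-likelihood test, treatment as the only term, with Benjamini-Hochberg adjustment over all genes. Standard errors are the absolute log2 fold change over the square root of F, and intervals use the fit's total degrees of freedom. Thresholds were those of the study. Symbols, positions and lengths came from GENCODE M21, with 1167 identifiers unmatched. Copies were searched with BLAST+ 2.17.0. Genes named from the wider set were those past the thresholds, those at an unadjusted p below 0.05 without overlap, and the most abundant per role. The genes, lists and tests were chosen with earlier results of these data known. Alternatives were other scalings, filters, tests (edgeR's exact test, DESeq2's Wald test, limma-voom), a replicate block, gene lengths and leaving out each heart.

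Fits ran in R 4.3.3 (limma 3.58.1 and edgeR 4.0.16, with DESeq2 1.42.0 as an alternative). Exact permutation tests used SciPy 1.17.1, and tables and plots used Matplotlib 3.10.9, NumPy 2.4.6 and pandas 2.3.3 under Python 3.11.15.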

Additional observations from a re-analysis of the deposited data

How the results depend on the processing

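Of the 10 genes, 1 (Adora1) was called with no filter on low counts, with edgeR's exact test and with DESeq2's Wald test, and 0 under the other 12 alternatives. The cause was not tested. Over all genes the count of calls was 14 as reported, 240 with no filter, 94 with the exact test, 67 with DESeq2, 40 with the replicate block, 27 with library size only, and between 4 (without vehicle replicate 2 or caffeine replicate 3) and 28 (without vehicle replicate 3) when 1 heart was left out. Adora1 was lower under all 14 alternatives. The genes without overlap were 1 or 2 when 1 heart was left out. Separation is easier to reach with fewer hearts, and the share over all genes was not computed there. Changes near 0 turned sign: Adk to −0.006 with library size only, and Slc29a1 to −0.079 with library size only, −0.018 with no filter and −0.002 with the replicate block. With 1 heart left out the log2 fold change ran from −0.177 to 0.233 for Nt5e, from −0.142 to 0.041 for Entpd1 and from −0.072 to 0.082 for Slc29a1. The log2 difference of the Adk to Ada ratio ran from −0.027 to 0.176, and that of the Nt5e to Entpd1 ratio from −0.107 to 0.187. With the replicate block 0 of the genes were called (Adora1 at −0.634, adjusted p = 0.0851), but hearts of the same number did not deviate together (r = 0.045, −0.03 and −0.038 across genes, and not every heart correlated best with its own number), so the numbers were not taken as pairs. Overlap has no value of its own under another test, so it was recomputed for scalings, filters and left-out hearts only. Depth limits Adora2b, Adora3 and Ada, and shared sequence limits Ahcy.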
